A study of Mus musculus with 15 samples.

Results

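*Smarcd1* overexpression was compared with empty vector by ATAC-seq in 6DT1 cells grown as a monolayer, over the open chromatin regions of the whole genome other than the *Smarcd1* locus itself. The members are all regions of the table deposited for this pair of lines except those that overlap chr15:99590000-99615000 (mm39), which leaves 38031 of 38036 regions, 5 being inside that interval. They were chosen by position alone, and of the 38031, 37760 passed the filter on low counts and were tested. The other 271 averaged at most 0.50 CPM (counts scaled by the size of the library) over the 6 libraries.

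6DT1 is a mouse mammary tumor cell line. Both groups were untreated cells in DMEM with serum on plastic. The overexpression (OE) line carried a lentiviral *Smarcd1* cDNA with a C-terminal Myc tag under a pol2 promoter and blasticidin selection, and the empty vector (EV) line was its control. Each group had 3 libraries. The labels give the genotype of EV as wildtype and state that replicates were seeded from different passages on following days, but that sentence stands in a description of RNA extraction. If it does not hold for these libraries, the p-values measure a spread that may be technical. The sources describe 1 line of each kind, so a difference between the lines and an effect of the cDNA cannot be told apart. Knockdown libraries of the same cells, 3 each of shScramble (Scr) and of the *Smarcd1* lines KD4 and KD6, are used below where OE and knockdown are set side by side.

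SMARCD1 is a subunit of the BAF (SWI/SNF) complex, which uses ATP to slide or evict nucleosomes and so alters which DNA is open to transcription factors. ATAC-seq reads out that state: a transposase inserts sequencing adapters where DNA is free of nucleosomes, and a region's count follows how often it was cut. A region's count in a bulk library cannot tell fewer cells with the region open from a less open region in each cell. The regions carry positions and no gene names here, and no mm39 annotation was at hand, so neither the mammary label nor gene groups could be checked against named genes.

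Total counts in regions were 27413885 to 30094385 in EV and 23625838 to 31225956 in OE. Mitochondrial regions took 4.19% to 4.91% of the counts in EV and 4.42% to 5.08% in OE, and the 20 regions with the most counts took 27.0% to 28.6% in EV and 27.8% to 30.9% in OE. The 2 groups overlapped in each of these measures. Inside the excluded interval 4 of the 5 regions were higher in OE by edgeR, which checks the labels. At chr15:99605194-99605858 EV had 11.97, 9.77 and 9.96 CPM and OE had 31.7, 30.6 and 26.5 CPM. Whether those reads came from the cDNA or the native gene was not tested.

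No region outside the *Smarcd1* interval passed the test. With edgeR's quasi-likelihood test at an FDR (false discovery rate after Benjamini-Hochberg adjustment) of 0.05, 0 of 37760 regions were called, against 0.0106% of all 37765 tested regions of the table, and the smallest adjusted p in edgeR was 0.558. Unadjusted, 1649 regions were higher in OE and 1578 lower at p under 0.05, where the share over the whole table was 4.38% and 4.18%. With no difference anywhere, a share of 0.05 over both directions would fall under this threshold. These shares together were above it. Single libraries moved the total of 3227: it was 1520 without OE replicate 3, 2002 without OE replicate 1 and 5317 without EV replicate 3. Without OE replicate 3 the share was below 0.05. The cause of the excess was not tested. Groups that did not overlap were found at 2929 regions with OE higher and at 2375 with OE lower, where 7.77% and 6.29% of the whole table did so. Exchanging the labels of 3 against 3 libraries gives such a split, in either direction, with probability 0.1. The shares together were above that. Since nearly all of the table is outside the interval, these shares describe the members themselves. DESeq2 called 1 region, chr6:51441102-51441289, which is described below.

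The size of change that the 6 libraries leave room for was read from the 95% interval of each region's log2 fold change (OE over EV). The median region had 133.2 counts per library, or 4.82 CPM, a standard error of 0.18 and an estimate of 0.02 on the log2 scale. The farthest fold change still inside the interval, in whichever direction is larger, is called the bound here. Its median was 1.45-fold, 90% of regions had a bound below 2.12-fold, and it ran from 1.17-fold to 11.6-fold. The interval lay wholly within 2-fold in 32954 regions (87.3%), within 1.5-fold in 21543 (57.1%) and within 1.2-fold in 556 (1.47%). A formal test of equivalence, with edgeR's variance and the FDR held at 0.05, placed 34192 regions (90.6%) within 2-fold and 22469 (59.5%) within 1.5-fold. Without TMM, 81.7% of intervals lay within 2-fold, beside 84.3% with upper quartile scaling and 88% with RLE scaling. Equivalence within 2-fold then held for 85.5%, 87.8% and 91.2% of regions.

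These intervals hold for 1 region at a time. With intervals wide enough to hold for all tested regions at once, the median bound was 2.64-fold, 16.3% of regions lay within 2-fold and 0% lay within 1.5-fold. A 2-fold change was thus outside the interval for most regions taken singly, and for a minority when all were covered at once.

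The bound went with how many counts a region had. It adds the reach of the standard error to the size of the estimate. Estimates of weak regions were themselves off 0, with a median log2 fold change of 0.42 under 1 CPM. The part of each in the bound was not tested. In regions under 1 CPM (3991 regions, median 19.8 counts) the median bound was 2.28-fold and 27.7% of intervals lay within 2-fold. From 1 to 2 CPM the median bound was 1.77-fold and 74.6% lay within 2-fold, and from 2 to 4 CPM it was 1.51-fold with 96.8% within. Above that level it narrowed in smaller steps, with class medians of 1.38-fold from 4 to 8 CPM, 1.32-fold from 8 to 16 CPM, 1.301-fold from 16 to 32 CPM and 1.299-fold from 32 to 64 CPM. In each of these 4 classes 99.5% of intervals lay within 2-fold, and the share within 1.5-fold was 79.7% in the first and 90.8% to 91.3% in the other 3. In the 1873 regions at 64 CPM or more the bound was wider again, with a median of 1.37-fold and 97.7% of intervals within 2-fold. The median standard error was 0.36 in the lowest class, 0.12 from 32 to 64 CPM and 0.13 in the highest.

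**Figure D1:**
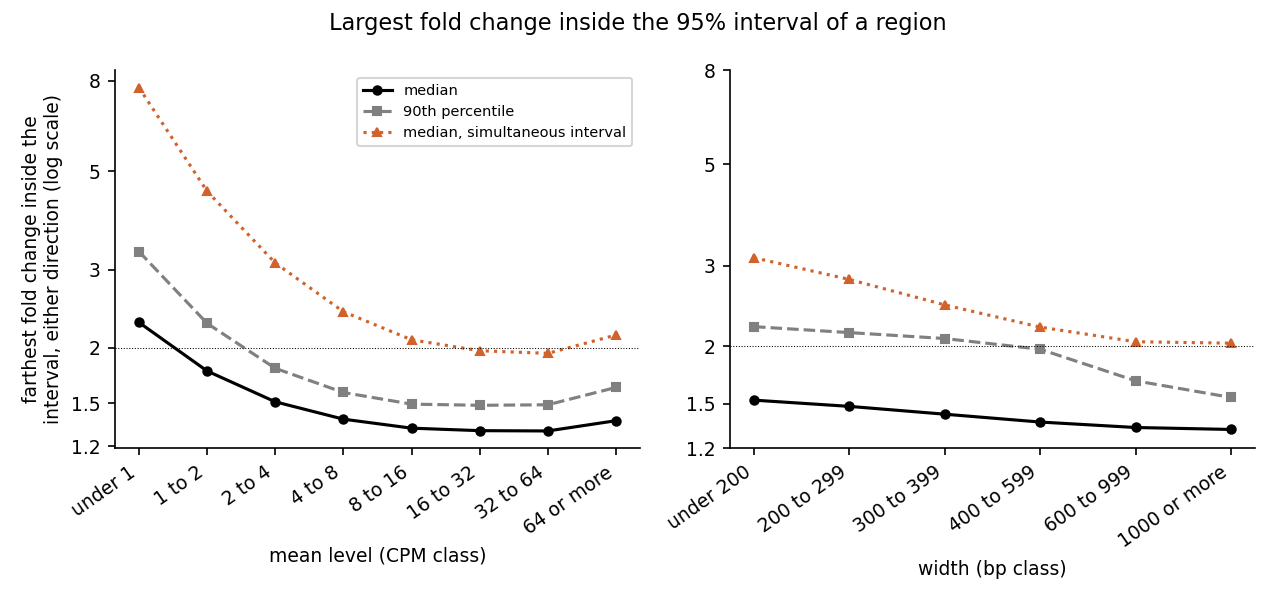
The farthest fold change inside a region's 95% interval (log axis) by mean level in CPM, left, and by width in bp, right, as the median and 90th percentile over regions, with the median for intervals that hold for all regions at once. The median fell from 2.28-fold under 1 CPM to 1.30-fold at 32 to 64 CPM, and from 1.53-fold under 200 bp to 1.32-fold at 1000 bp or more.

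Intervals that reached 2-fold were one-sided and came from weak regions. Of the 4806 such regions, 92.6% had less than 2 CPM. In 4589 only the upper side of the interval reached 2-fold, in 209 only the lower side, and in 8 both. The estimate itself passed 2-fold in 238 regions, of which 235 were higher in OE, with a median of 0.58 CPM and 16 counts. The smallest adjusted p among them in edgeR was 0.574.

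The widest interval, chosen after its values were seen, was that of chr12:84242873-84243065. It had 0.076, 0.17 and 0.071 CPM in EV and 0.52, 0.39 and 0.72 CPM in OE, an estimate of 2.32 on the log2 scale and a bound of 11.6-fold. The groups did not overlap, but the levels rest on very few reads. The narrowest, also chosen after its values were seen, was that of chr17:3362562-3363103, with 36.6, 36.8 and 33.8 CPM in EV and 36.6, 35.5 and 34.9 CPM in OE. Its bound was 1.17-fold and the groups overlapped fully.

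The other 3 estimates past 2-fold were lower in OE. At chr6:140692720-140692892 EV had 1007, 312.3 and 264.3 CPM and OE had 218.2, 277.8 and 257.1 CPM, and at chr18:36877317-36877499 EV had 15.6, 6.82 and 5.07 CPM against 4.28, 4.47 and 4.95 CPM in OE. In both, EV replicate 1 alone stood far above the other 5 libraries. The groups overlapped in the first, and in the second the lowest EV library was 5.07 CPM and the highest OE library 4.95 CPM. Bounds were 5.34-fold and 4.02-fold despite the counts. The third, chr7:79525446-79525609, was a weak region in which the groups were apart, with 1.11, 0.86 and 0.96 CPM in EV and 0.41, 0.42 and 0.48 CPM in OE.

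Estimates were not centred alike at all levels. Weak regions tended to be higher in OE and strong regions lower. Under 1 CPM the median log2 fold change was 0.42 and 90.7% of regions had a positive estimate. From 4 to 8 CPM it was -0.0073, with 48.0% positive. At 64 CPM or more it was -0.17, with 12.1% positive. The regions whose groups did not overlap followed the same course: 842 higher and 10 lower (21.1% and 0.251%) under 1 CPM, 336 higher and 351 lower (4.98% and 5.21%) from 4 to 8 CPM, and 25 higher and 379 lower (1.33% and 20.2%) at 64 CPM or more.

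**Figure D2:**
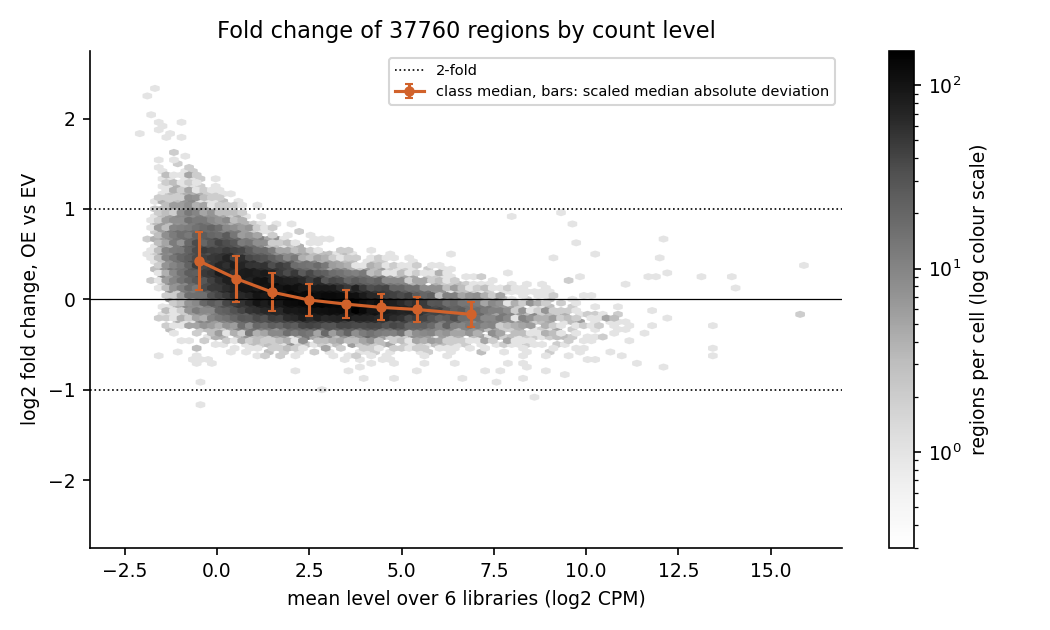
Log2 fold change of OE over EV (vertical) against the mean level of each of the 37760 tested regions (log2 CPM, horizontal), with shading for the number of regions per cell and points for the median of each level class. The class median falls from 0.42 under 1 CPM to -0.17 at 64 CPM or more, and few regions pass the dotted 2-fold lines outside the weakest classes.

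This tilt between weak and strong regions varied from library to library within a group. In regions under 1 CPM, the median log2 ratio of a library to the mean of the 6 was -0.26, -0.30 and 0.0020 in EV and 0.18, 0.095 and 0.42 in OE. The groups did not overlap there, and the difference of means was 0.42 on the log2 scale (two-sided exact permutation test, p = 0.1, adjusted p = 0.267 over the 8 classes). With 3 libraries against 3, 0.1 is the smallest p the design allows. In the other 7 classes the libraries of the groups overlapped. At 64 CPM or more the medians were 0.15, 0.12 and -0.029 in EV and -0.073, 0.0051 and -0.19 in OE.

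EV replicate 3 lay nearer to OE than the other 2 EV libraries at both ends, and OE replicate 3 was the most extreme of the OE libraries. Measured against the mean of all 15 libraries, the tilt (median log2 ratio in the lowest class minus that in the highest) averaged -0.43 in EV (SD 0.26, n = 3), while the OE libraries averaged 0.16 (SD 0.26, n = 3). The difference of 0.59 had p = 0.1 in an exact permutation test. The Scr libraries averaged 0.32 (SD 0.25, n = 3), those of KD4 0.041 (SD 0.16, n = 3) and those of KD6 0.039 (SD 0.37, n = 3). Within KD6 alone the libraries ran from -0.33 to 0.42, a range of 0.75. Within both groups the tilt was highest in the library with the smallest total: -0.13 in EV replicate 3, with 27413885 counts, and 0.45 in OE replicate 3, with 23625838 counts. It was lowest in the library with the largest total, at -0.59 in EV replicate 2, with 30094385 counts, and -0.072 in OE replicate 2, with 31225956 counts. The part of depth in the tilt was not tested.

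**Figure D3:**
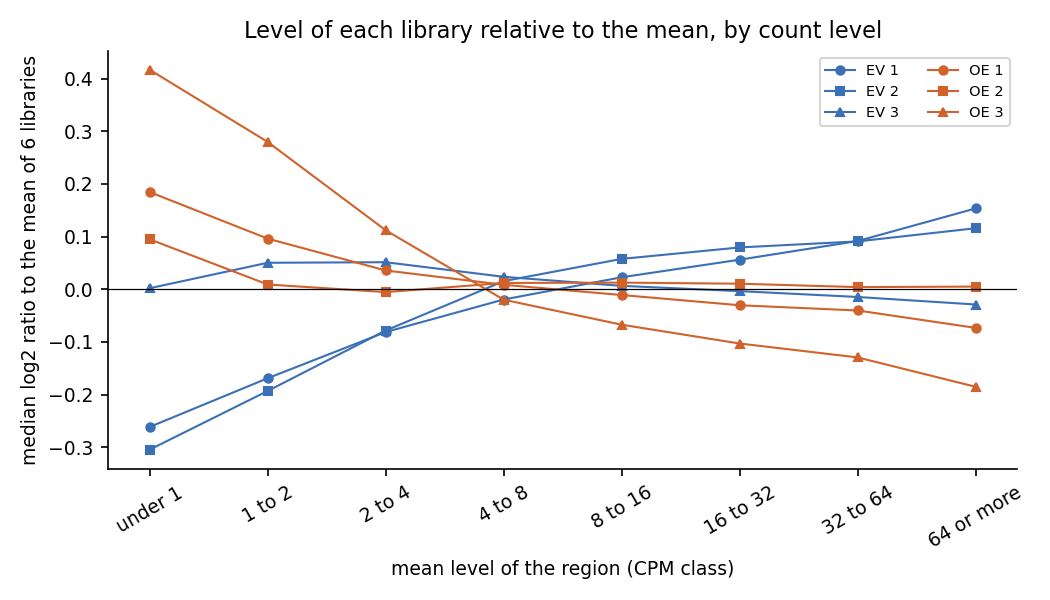
Median log2 ratio of each library to the mean of the 6 (vertical) by the mean level of the region in CPM classes (horizontal), for 3 EV (blue) and 3 OE (orange) libraries. The lines cross between 4 and 8 CPM. The groups are apart only in the lowest class, and EV replicate 3 stays close to 0 throughout.

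When the offsets of the libraries were allowed to follow the level (loess), an alternative added after the tilt was seen, the class medians moved to -0.0064 and -0.0018 at the 2 ends by construction. Then 0 regions outside the interval were called by edgeR, 1835 had an unadjusted p under 0.05 and 93.8% of intervals lay within 2-fold.

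Wider regions had tighter bounds. The median bound was 1.53-fold in the 9835 regions under 200 bp, 1.48-fold from 200 to under 300 bp, 1.42-fold from 300 to under 400 bp, 1.37-fold from 400 to under 600 bp, 1.33-fold from 600 to under 1000 bp and 1.32-fold in the 139 regions of 1000 bp or more. The share within 2-fold went from 84.3% in the narrowest class to 97.8% in the widest. Over the same classes the median level went from 2.95 to 84.6 CPM. At an equal level, width made little difference to the error: from 4 to 8 CPM the median standard error was 0.16 to 0.17 in every class of width with at least 20 regions.

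Width did go with the estimate at an equal level. From 1 to 2 CPM the median log2 fold change was 0.15 in regions under 200 bp and 0.55 in those of 600 to under 1000 bp, and under 1 CPM it was 0.35 under 200 bp and 0.64 from 400 to under 600 bp. The same level spread over more bases is a lower density of counts. Sorted by density (CPM per 100 bp) in 8 equal classes of 4720 regions, the median log2 fold change ran from 0.43 in the sparsest class, up to 0.427 CPM per 100 bp, to -0.13 in the densest, from 8.68 CPM per 100 bp. Within the sparsest class it was 0.40 to 0.49 at every width, and within the densest -0.16 to -0.11. Density thus ordered the estimates, and at the 2 ends little was left for width. Between them width still counted. In class 4 of 8 the median was -0.0061 from 300 to under 400 bp and 0.078 from 600 to under 1000 bp. In class 6 it was -0.063 from 300 to under 400 bp and 0.020 in the 24 regions of 1000 bp or more. In weak regions, less was left for width within a density class than at an equal CPM.

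Medians over regions were close together on most chromosomes. The library medians of EV and OE were apart on chromosomes 4, 5, 10 and 15 and overlapped on the others. The differences of means there were 0.031, 0.019, 0.021 and 0.048 on the log2 scale. Each had p = 0.1 in an exact permutation test (adjusted p = 0.55). Median log2 fold changes ran from -0.015 on chromosome 19 to 0.081 on chromosome 6 over the autosomes, with -0.012 on X, 0.034 on Y (49 regions) and -0.14 on the mitochondrial genome (12 regions). Chromosome 6 had the weakest regions of the autosomes, with a median of 3.56 CPM, the widest median bound, 1.502-fold, and the lowest share within 2-fold, 82.4%. Chromosome 11, with a median of 6.05 CPM, had a bound of 1.42-fold and 90.3% within 2-fold. After each region's estimate was taken relative to the median of its level class, the medians were 0.022 on chromosome 6 and 0.023 on 15, the chromosome of *Smarcd1*, -0.021 on X, 0.079 on Y and 0.026 on the mitochondrial genome.

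Counts of neighbouring regions were summed to ask whether a change too small for single regions would show over a longer stretch. Regions up to 10 kb apart were joined into runs, and regions were also summed in windows of 100 kb and 1 Mb and over chromosomes, all without the *Smarcd1* interval and with the scaling of the single regions. Of 14399 runs tested, 0 (0%) were called by edgeR, with 1680 at an unadjusted p under 0.05 (700 higher and 980 lower in OE). Of 8777 windows of 100 kb, 0 (0%) were called and 1094 had an unadjusted p under 0.05 (319 higher and 775 lower in OE). Of 2271 windows of 1 Mb, 0 (0%) were called and 355 had an unadjusted p under 0.05, of which 29 were higher and 326 lower in OE. Those 355 became 110 without OE replicate 3, 141 without OE replicate 1, 173 without EV replicate 1 and 586 without EV replicate 3, and 158 without TMM scaling. The 1680 runs and the 1094 windows of 100 kb moved likewise, to 699 and 437 without OE replicate 3, 946 and 550 without OE replicate 1, 1064 and 646 without EV replicate 1, and 2598 and 1681 without EV replicate 3. The totals for runs and windows were above a share of 0.05 with all libraries and below it without OE replicate 3. The smallest adjusted p in edgeR was 0.409, 0.397 and 0.309.

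Pooling narrowed the intervals. The median standard error was 0.18 for single regions, 0.14 for runs, 0.11 for 100 kb windows and 0.080 for 1 Mb windows. The median bound was 1.37-fold for runs, 1.31-fold for 100 kb windows and 1.23-fold for 1 Mb windows, and 90%, 94.8% and 98.5% lay within 2-fold. Within 1.2-fold lay 9.42% of runs, 18.7% of 100 kb windows and 39.5% of 1 Mb windows. Runs of 1 region had a median bound of 1.504-fold, runs of 2 regions 1.35-fold and runs of 10 or more regions 1.23-fold. The median log2 fold change also moved, to -0.019 for runs, -0.048 for 100 kb windows, -0.082 for 1 Mb windows and -0.14 for chromosomes. The strongest regions weigh most in a sum. Sums kept the TMM factors of the single regions, which were 0.91 to 1.02 in EV and 0.98 to 1.07 in OE. The part of level and of scaling in this move was not tested.

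**Figure D4:**
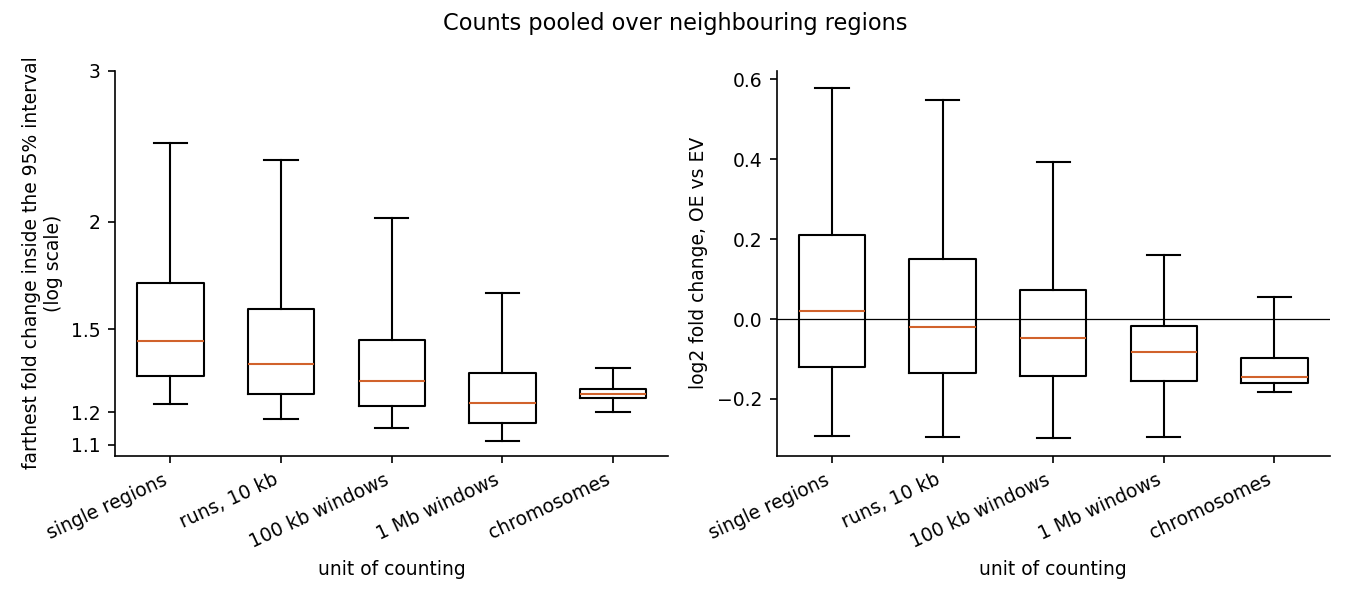
Farthest fold change inside the 95% interval (left, log axis) and log2 fold change of OE over EV (right) for single regions and for sums over runs, windows and chromosomes. Boxes span the quartiles with the median in orange, and whiskers the 5th and 95th percentiles. The median bound falls from 1.45-fold for regions to 1.23-fold for 1 Mb windows while the median log2 fold change moves from 0.02 to -0.082.

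Neighbouring regions resembled each other. Over 23348 pairs of adjacent regions within a run, the log2 fold changes had a correlation of 0.388, or 0.196 once taken relative to the level class. Between replicates of 1 group, also relative to the level class, it was 0.098 for EV replicate 2 over replicate 1 and 0.103 for the same OE libraries. Those ratios set single libraries against each other, whereas OE over EV uses all libraries of both groups. Their sampling noise is thus larger, and the lower correlations cannot be read as less resemblance. The remaining library of each group was not in these ratios. Adjacent regions share libraries and levels, so the values are descriptions across regions.

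The stretches nearest to a call were modest. The 100 kb window with the smallest p was chr8:109609865-109687982, with 14 regions. It had 59.8, 52.8 and 57.3 CPM in EV and 70.3, 71.9 and 77.2 CPM in OE, and a log2 fold change of 0.37 ± 0.079 (SE; edgeR adjusted p = 0.397). All 3 OE libraries were above all 3 EV libraries. The 1 Mb window around it gave 0.32 ± 0.071 (SE; edgeR adjusted p = 0.309). The 1 Mb window next in p, chr7:108029371-108987999, with 6 regions, was lower in OE. It had 290.9, 264.0 and 278.3 CPM in EV and 232.1, 227.8 and 239.0 CPM in OE, the groups being apart. The log2 fold change was -0.25 ± 0.056 (SE; edgeR adjusted p = 0.309). The run with the smallest p, chr4:124830439-124830631, was a single region lower in OE (log2 fold change -0.52) and is described below. At chr17:62911416-62958048, with 5 regions, EV had 14.2, 14.5 and 14.5 CPM and OE had 18.3, 18.4 and 18.5 CPM, the groups being apart with almost no spread within them. Its log2 fold change was 0.36 and its edgeR adjusted p 0.309. These stretches were named after their values were seen.

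Chromosome sums had a median standard error of 0.096 and a median bound of 1.26-fold, and all 22 intervals lay within 1.5-fold. With edgeR 0 of 22 (0%) were called and 3 had an unadjusted p under 0.05. Chromosomes 14 and 9 were lower in OE, with log2 fold changes of -0.29 and -0.28 (edgeR adjusted p = 0.0570 for both). Chromosome 17 was higher, with 0.24 (edgeR adjusted p = 0.0978). These p-values use 1 spread for all chromosomes, whose sums come from the same 6 libraries. Exact permutation tests gave p = 0.2 for 14, 0.1 for 9 and 0.2 for 17. On 14, EV had 42140, 31840 and 28240 CPM and OE 26810, 29690 and 27310 CPM. On 17, EV had 83410, 94730 and 104400 CPM and OE 96000, 116400 and 122200 CPM. The groups overlapped on both. On 9, EV had 67920, 53680 and 49330 CPM and OE 47100, 49290 and 44650 CPM, apart only by the margin between 49330 and 49290. Without EV replicate 3 these 3 chromosomes were called, with log2 fold changes of -0.41, -0.37 and 0.32 and edgeR adjusted p of 0.0026, 0.0042 and 0.015. Leaving out any other EV or OE library gave 0 calls. Without EV replicate 1, and also without TMM, 0 chromosomes had an unadjusted p under 0.05 in edgeR. With the replicate number as a block they were called too, at edgeR adjusted p of 0.010, 0.010 and 0.016. Chromosome 16 was at 0.11 and Y at 0.056, which lie 0.25 and 0.20 above the median of the chromosomes, and their edgeR adjusted p was 0.333 and 0.595.

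A single region held 59.4% of the counts of chromosome 17, 36.3% of those of chromosome 14 and 22.2% of those of chromosome 9. Without the 20 regions with the most counts, the 3 chromosomes gave -0.13 on 14, -0.14 on 9 and -0.072 on 17, and chromosome 16 gave -0.031. Then no chromosome was called by edgeR, and the smallest edgeR adjusted p was 0.159. The range over all chromosomes was then -0.16 to 0.056 and the median bound 1.23-fold.

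**Figure D5:**
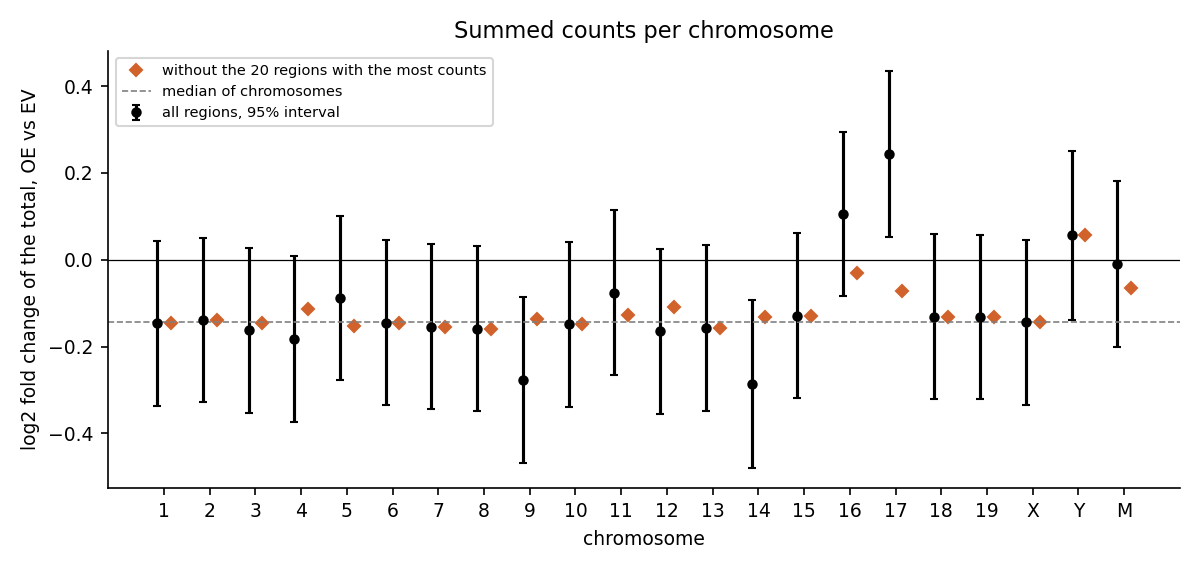
Log2 fold change of OE over EV in the summed counts of each chromosome, with 95% intervals (black), the same without the 20 regions with the most counts (orange) and the median of the chromosomes (dashed). Chromosomes 9 and 14 lie below the other chromosomes, and 16, 17, Y and M above them, with all regions. Without those 20, chromosomes 9, 14, 16 and 17 lie at -0.14, -0.13, -0.031 and -0.072.

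The regions with the most counts, mitochondrial ones aside, show how little depth buys there. At chr17:40153966-40156541 EV had 42820, 52840 and 63690 CPM and OE had 56100, 72620 and 78730 CPM. The groups overlapped, the log2 fold change was 0.38 ± 0.22 (SE) and the bound was 1.80-fold. At chr12:69206125-69206286 EV had 63780, 58450 and 53960 CPM and OE had 49550, 57730 and 48740 CPM, with a bound of 1.52-fold. A second region on the same chromosome, chr12:69408041-69408194, had almost the same counts in each library, from 48770 to 63830 CPM, and whether the 2 share reads was not tested. At chr5:146197860-146198087, EV had 15120, 14480 and 18210 CPM and OE 14420, 19760 and 18320 CPM, with a bound of 1.46-fold.

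Among regions with at least 5 CPM, the 4 lower and 4 higher in OE with the smallest p all missed the threshold. The lower region chr6:51441102-51441289 had 526.1, 360.8 and 309.0 CPM in EV and 240.8, 215.3 and 202.8 CPM in OE. The groups did not overlap and EV varied more than OE. Its log2 fold change was -0.86 ± 0.17 (SE), with an interval from 0.43-fold to 0.70-fold (edgeR adjusted p = 0.558). DESeq2 gave it an adjusted p of 0.0040, and edgeR called it without EV replicate 3, at an adjusted p of 0.0482.

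At chr2:113678614-113678807 EV had 44.5, 45.3 and 41.2 CPM and OE had 32.5, 31.4 and 28.5 CPM, a log2 fold change of -0.50. At chr11:77577061-77577307 EV had 73.3, 67.0 and 56.1 CPM and OE had 48.1, 45.6 and 38.6 CPM, with -0.57. At chr4:124830439-124830631 the values were 20.9, 20.9 and 19.4 CPM in EV and 15.2, 14.3 and 13.1 CPM in OE, with -0.52. In each, every OE library was below every EV library, and the edgeR adjusted p was 0.574.

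On the higher side, chr7:127151482-127152134 had 16.4, 13.4 and 17.0 CPM in EV and 21.8, 20.1 and 26.3 CPM in OE, a log2 fold change of 0.54. At chr6:91682137-91683471, 1335 bp wide, EV had 5.47, 3.98 and 4.32 CPM and OE had 6.82, 6.49 and 9.18 CPM, with 0.71. At chr11:69628058-69628366 the values were 22.6, 20.2 and 23.0 CPM in EV and 33.7, 27.1 and 30.6 CPM in OE, with 0.48. The groups were apart in all 3, with OE replicate 3 the highest library in the first 2.

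The fourth, chr4:137280958-137281167, had 17.9, 16.5 and 18.8 CPM in EV and 21.7, 24.7 and 27.9 CPM in OE, again with 0.48. The edgeR adjusted p was 0.574 for these 4. Their bounds were 1.76-fold, 2.10-fold, 1.65-fold and 1.67-fold, so a 2-fold increase lay inside the interval only for the region on chromosome 6.

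Regions that changed in *Smarcd1* knockdown give a further set, chosen on the contrast of knockdown with Scr. The EV and OE libraries were in the fit that chose them and entered its filter, scaling and dispersion. The width of the OE intervals at these regions is therefore not independent of the choice. Over the regions of the OE table, in a fit of all 15 libraries, the mean of KD4 and KD6 was higher than Scr at 115 regions and lower at 66 by edgeR at an FDR of 0.05, which is 0.303% and 0.174% of the regions tested. The median log2 fold change of KD over Scr was 0.74 in the former and -0.90 in the latter. OE over EV had a median of -0.052 at the 115 regions, where 41 estimates were above 0 and 74 below, and of 0.0084 at the 66, where 37 were above 0 and 29 below. The median over all regions was 0.02. The sets had median levels of 11.2 and 9.49 CPM, and all tested regions from 8 to 16 CPM had a median of -0.053. Relative to their level class the medians of the sets were 0.0057 and 0.056.

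In OE over EV, 0 of these 181 regions were called by edgeR. At an unadjusted p under 0.05, 11 of them (6.08%) were lower in OE and 2 (1.1%) higher, beside 4.18% and 4.38% of all tested regions. Of the 115 higher in knockdown, 9 (7.83%) were lower in OE and 0 higher. Of the 66 lower in knockdown, 2 were lower in OE and 2 higher (3.03% each). Near the level of these sets, from 8 to 16 CPM, 277 of 5801 tested regions were lower and 102 higher at that p. The difference in shares was not tested. The interval lay within 2-fold at all 115 regions that were higher in knockdown and at 65 of the 66 that were lower, with median bounds of 1.31-fold and 1.33-fold. It lay within 1.5-fold at 85.2% and 80.3% of them. Of all tested regions from 8 to 16 CPM, 99.5% lay within 2-fold and 90.8% within 1.5-fold, so narrow intervals were not particular to these sets.

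The difference between the 2 contrasts was tested directly in the same fit. OE minus EV differed from KD minus Scr at 22 regions outside the *Smarcd1* interval (14 higher and 8 lower) by edgeR, against 0.0606% of all regions tested. At 21 of the 22 the knockdown contrast was called on its own and at 21 it was the larger of the 2 changes. The median absolute log2 fold change was 0.11 in OE and 1.27 in knockdown, and OE alone called none. With an unadjusted p under 0.05 there were 5237 regions for the difference, 2033 for OE and 4432 for knockdown in that fit. It was called at 59 regions with KD4 as the only knockdown line and at 5 with KD6. The count of 22 also depended on single libraries and ran from 8 to 16 when EV or OE libraries were left out in turn: it was 8 without EV replicate 1, 12 without EV replicate 2, 9 without OE replicate 1, 10 without OE replicate 2 and 11 without OE replicate 3.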

How the data were processed

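ATAC-seq counts of 6 libraries (3 EV, 3 OE) were analysed over the regions of 1 table, with 9 knockdown and Scr libraries for 1 comparison. Per region, the deposited tables give expected counts (95.0% whole numbers), with no normalization and no value below 1, and these were rounded. The methods name Bowtie2 for alignment (mm39) and MACS for peak calling, both run in Partek Flow by the authors. The submitters' processing notes instead list STAR 2.7.8a, and the extraction text in the labels is for RNA. The aligner behind the counts is therefore uncertain. The counts were read as open chromatin because they are labelled ATAC, and that reading was not tested. The merging of peaks and the assignment of reads are not given in the sources. The 15 further columns in each of the 2 tables (30 in all) matched no sample and were not used.

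Regions were tested with edgeR 4.0.16 (R 4.3.3): quasi-likelihood fit, TMM scaling, filterByExpr for weak regions and an FDR of 0.05 (Benjamini-Hochberg). Intervals used the standard error of the contrast from the fitted coefficients and moderated dispersion. The median common coefficient of variation was 12.9%. Simultaneous intervals used a Bonferroni level, and equivalence used 2 one-sided tests. Chromosome sums used a common spread over chromosomes. Log ratios used a prior of 0.5 counts. DESeq2 1.42.0 was an alternative. The procedure was tested on simulated data. Total counts were 23625838 to 31225956 and limit precision by counting error only. Replicates differed by 8.8 to 38 times the chi-square of sampling noise and were counted singly.

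The regions named are the 4 higher and 4 lower with the smallest p at 5 CPM or more, and the 4 non-mitochondrial regions with the most counts. Others are said to have been chosen after their values were seen. The members, lists and alternatives were chosen with earlier results of these data known. No mm39 annotation was used, so the gene lists, cell type markers and the naming of genes could not be applied. Alternatives were other scalings, filters, thresholds and gaps, the replicate block, all 15 libraries in 1 fit, no robust fit, fits without mitochondrial and the 20 largest regions, and each EV and OE library left out. Loess offsets, the regions of the other table and a 15-library fit of chromosome sums were added after seeing the data.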

Additional observations from a re-analysis of the deposited data

Results flagged for a closer look

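The OE and knockdown contrasts differed at 22 regions outside the *Smarcd1* interval, by edgeR's test of the difference itself at an FDR of 0.05. The 4 with the smallest p, named after their values were seen, follow as OE minus EV less KD minus Scr on the log2 scale. Adjacent regions on chromosome 10, from 18731478 and from 18732096, gave -1.69 and -1.495. In the first, EV had 33.0, 30.1 and 27.4 CPM, OE 24.9, 23.8 and 22.8 CPM and Scr 9.18, 10.1 and 8.87 CPM, and the 6 knockdown libraries had 18.2 to 29.6 CPM. Scr was thus the group that stood apart, below EV, OE and both knockdown lines. The region on chromosome 14 from 51038589 gave 2.96, with 1.12 to 1.197 CPM in EV, 1.22 to 2.498 CPM in OE, 1.44 to 2.07 CPM in Scr and 0.21 to 0.74 CPM in knockdown. The region on chromosome 4 from 156517294 gave 1.45, of which OE contributed 0.25 and knockdown -1.197. Groups of 3 libraries were not tested for single libraries that stand apart.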

How the results depend on the processing

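Of 146 values recomputed under 26 alternative settings, 130 stayed within 1.5 times the reported count or share, or within the spread between libraries. Counts of 0 called runs, 100 kb windows and 1 Mb windows stayed at 0 under each alternative run, and equivalence at 2-fold stayed between 83.6% and 98.8% of regions. DESeq2 called 1 region and edgeR without EV replicate 3 called 1, so left-out libraries gave 0 to 1. Simultaneous intervals left 16.3% of regions within 2-fold in place of 87.3%, by their construction; left-out libraries gave 80.2% to 86.9%. Chromosome sums gave 0 to 3 calls over left-out libraries. The difference from knockdown was called at 59 regions with KD4 alone, at 5 with KD6 alone and at 8 to 16 over left-out libraries. The median log2 fold change under 1 CPM was 0.42, moved to -0.0064 with loess offsets and stayed between 0.32 and 0.54 over left-out libraries. At 64 CPM or more, -0.17 moved to -0.067 without TMM and to -0.0018 with loess offsets, and left-out libraries gave -0.22 to -0.12. Apart from the loess and simultaneous intervals, the cause was not tested.

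With the replicate number as a block, 3 chromosomes (9, 14 and 17) were called in place of 0, and 40 regions in place of 22 for the difference from knockdown; the count of regions stayed at 0, with 4910 in place of 3227 at an unadjusted p under 0.05. Whether the numbers pair the samples is not settled. Deviations of same-numbered EV and OE libraries correlated at -0.027, 0.29 and 0.30. Differently numbered ones ran from -0.33 to 0.095, so the last 2 lay above that range and the first inside it. Of the intervals that reach 2-fold, 92.6% are of regions under 2 CPM; the part of depth in them was not tested apart from that of the tilt.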
